A study of Mus musculus with 6 samples.

Results

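The enzymes that make, degrade and read out cyclic AMP (cAMP) were followed in mouse ovarian tumours grown with or without estradiol (E2). The members were all genes with a symbol of the form Pde, Adcy or Prka (catalytic subunits Prkaca and Prkacb, regulatory subunits Prkar1a, Prkar1b, Prkar2a and Prkar2b) that had a probe set naming that gene alone. They came to 40 of the 19937 genes measured, with 25 phosphodiesterases, 10 adenylyl cyclases and 5 subunits of protein kinase A (PKA). Prkaca was not analysed here, because its probe set names Samd1 as well. Pde4d had 3 probe sets and was represented by the one with the highest mean signal.

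The tumours came from MASE2 cells, ascites cells of the tgCAG-LS-TAg mouse. In that model Cre recombinase, delivered by adenovirus into the ovarian bursa, switches on the large and small T antigens of SV40 in ovarian surface epithelium, and the animal that gave the cells had itself received E2. SCID mice, which lack mature T and B lymphocytes, received the cells together with an E2 pellet (3 tumours) or a placebo pellet (3 tumours). Tumours were taken at loss of wellness, and the sources used here give no dose, day or age of the mice. The labels describe the samples as cancer cells of treated mice, but whole tumours were collected and host cells can be part of the RNA.

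Cyclic AMP is a second messenger made from ATP by adenylyl cyclases, most of which sit in the plasma membrane and answer to G proteins. It releases the catalytic subunits of PKA from their regulatory subunits, and it is removed by phosphodiesterases, whose families differ in whether they cleave cAMP, cyclic GMP (cGMP) or both. In the ovary, cAMP carries the gonadotropin signal that drives steroid synthesis in granulosa and theca cells, and Pde3a is known as the enzyme that lowers cAMP when the oocyte resumes meiosis. PKA acts on the transcription factor CREB, which binds the cAMP response element (CRE), while oestrogen receptors bind the oestrogen response element (ERE).

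RefSeq promoters (assembly GRCm38.p6, 250 bases before to 50 after a start site) matched 31 of the 40 members, with 67 promoters. Pde3a, the member that fell, was not among the 31, so no promoter of it was searched. Promoters are shown for Pde7b, the member that rose, and for members with a full match to a searched motif. They are a description of sequence only. Pde7b lies on the minus strand, at chr10:20548329-20548578 for the 250 bases before its start, and held none of the motifs searched. Adcy1, on the plus strand at chr11:7063183-7063432, held a match to the Nr5a1 site CAAGGTCA at bases -175 to -168, in capitals, whose end is also the ERE core GGTCA. For Prkar1a 30 bases on the plus strand, chr11:109650889-109650918, are shown around a full CRE in capitals, at -49 to -42 of 1 start site and 39 to 46 of another. For Pde10a the 30 bases at chr17:8849994-8850023, plus strand, hold a full ERE in capitals, at bases 18 to 30 of the transcribed sequence.
Pde7b: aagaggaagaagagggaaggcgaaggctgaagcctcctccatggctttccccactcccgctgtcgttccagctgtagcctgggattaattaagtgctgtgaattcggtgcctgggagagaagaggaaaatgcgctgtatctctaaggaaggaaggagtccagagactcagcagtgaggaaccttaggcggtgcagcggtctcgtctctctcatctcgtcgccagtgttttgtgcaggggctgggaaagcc
Adcy1: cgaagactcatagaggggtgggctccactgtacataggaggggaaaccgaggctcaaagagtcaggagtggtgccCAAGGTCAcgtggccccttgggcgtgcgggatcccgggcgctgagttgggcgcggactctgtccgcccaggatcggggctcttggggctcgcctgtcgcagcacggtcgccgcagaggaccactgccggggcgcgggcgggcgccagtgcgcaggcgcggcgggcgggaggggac
Prkar1a: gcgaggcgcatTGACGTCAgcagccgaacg
Pde10a: gggcggttGGTCAACCTGACCagagggagc

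Motifs were searched on both strands and may overlap, since the CRE contains its core and the Nr5a1 site and the ERE each contain the ERE core. The full CRE, TGACGTCA, was found in 2 of the 67 member promoters (2.99%), both of Prkar1a, and in 1.79% of all 32851 promoters of that length. The full ERE, GGTCA and TGACC with 3 bases between them, was found in 1 member promoter (1.49%) and in 0.07% of all promoters. The CRE core TGACG was found in 22.4% of member promoters and 20.8% of all, and the ERE core GGTCA in 29.9% and 40.5%. The Nr5a1 site was found in 1 member promoter (1.49%) and in 1.56% of all. A match is no evidence of binding, and promoters of 1 gene overlap.

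Values were log2 intensities made by RMA (background correction, normalization between arrays and summary per probe set), so a difference of 1 is a doubling of signal. Placebo replicate 3 stood apart. Its Pearson r with the other arrays, across genes, which are not independent replicates, was 0.857 to 0.865, against 0.960 to 0.994 among the others. All 15 measured markers of the intestinal lining were highest on that array, where their mean log2 level was 10.37 against 4.34 to 4.74 on the others. Epithelial and ovarian surface epithelium markers, the class of the tumour cells, were present on all 6 arrays, with 0 of 11 markers below the lower quartile of genes (4.22 to 4.39) on every array. Their mean log2 level was 7.72, 7.30 and 8.06 with placebo and 6.47, 6.61 and 6.73 with E2, so the groups did not overlap. Of these markers 10 had lower means with E2 and 1, Gata4, a higher one. T and B cell markers had a mean of 4.24 to 4.43 with placebo and 4.04 to 4.20 with E2. Values without placebo replicate 3 are given beside the members' changes on 6 arrays where they differ in call or clearly in size.

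With E2, 1 member rose and 1 fell at an adjusted p under 0.05 (limma with Benjamini-Hochberg adjustment over all genes), and 38 did not pass. That is 2 of 40 members (5%), against 1.38% of all genes tested (1.06% higher and 0.326% lower). The member that rose was Pde7b, a cAMP-specific phosphodiesterase (2.99-fold), and the one that fell was Pde3a, a phosphodiesterase of cAMP and cGMP (3.36-fold). The median change over the 40 members was -0.055 log2, against -0.0087 over all genes, and 17 members lay above 0 and 23 below. Without placebo replicate 3, 2 members rose and 3 fell, or 12.5% of members against 11.6% of all genes (6.40% higher and 5.21% lower), and the median change was -0.038 log2. The added calls were Prkar1a, higher, and Pde2a and Adcy1, lower. In 14 of the 40 members (35%) the 3 E2 values did not overlap the 3 placebo values, 6 higher and 8 lower, against 26.3% of all genes (14.9% higher and 11.4% lower).

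**Figure D1:**
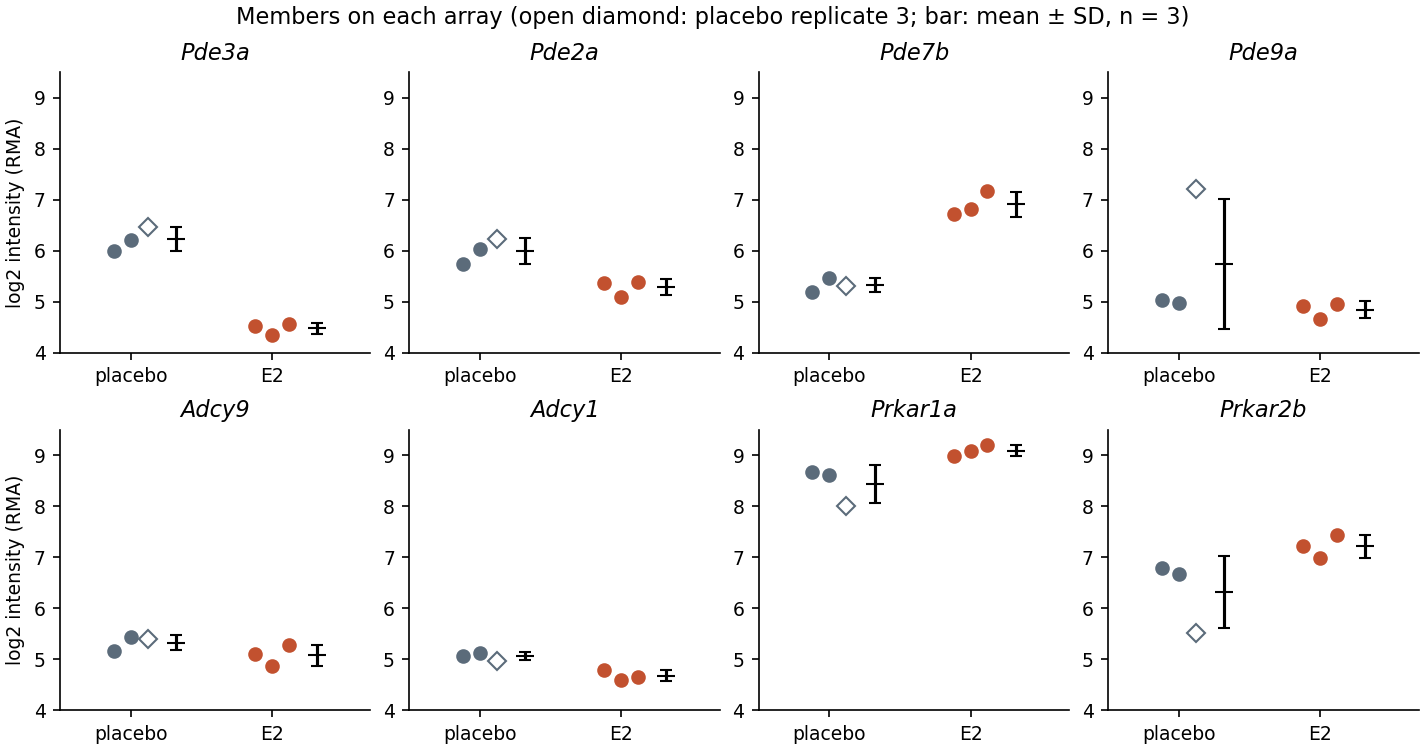
Log2 RMA intensity of 8 members on each array, placebo in grey and E2 in orange, with placebo replicate 3 as an open diamond and black bars for the mean and SD (n = 3). The Pde3a and Pde7b groups are widely separated, the Adcy9 groups overlap, and placebo replicate 3 alone lies high for Pde9a (7.22) and low for Prkar2b (5.51). Levels of different genes come from different probes and are not comparable.

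Pde3a cleaves cAMP and is inhibited by cGMP, and is best known from heart, vascular smooth muscle, platelets and oocytes. Its log2 level was 6.003, 6.21 and 6.47 in the placebo tumours and 4.53, 4.35 and 4.56 in the E2 tumours. The groups did not overlap, and placebo replicate 3 held the highest value. Pde3a fell by 1.75 log2 units (SE 0.14, 95% confidence interval -2.10 to -1.40, adjusted p = 0.00731), a 3.36-fold difference, from 6.23 ± 0.24 to 4.48 ± 0.12 (SD, n = 3). For Pde3a alone, an exact permutation test (two-sided) gave p = 0.10, the lowest that 3 against 3 can give. Every gene whose groups do not overlap, 26.3% of all genes, gives that value in this test. The E2 values of Pde3a lay just above the quartile of their arrays (4.31, 4.22 and 4.23), where RMA compresses differences.

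Without placebo replicate 3 the change of Pde3a was -1.63 log2 (adjusted p = 0.000208). The call was lost when E2 replicate 1, 2 or 3 was left out (adjusted p = 0.069, 0.0617 and 0.0583), with changes of -1.77, -1.68 and -1.79, in fits that called 0.155%, 0.216% and 0.221% of all genes. Several marker lists moved with it. Mean log2 levels of 11 mesothelial markers were 7.74, 7.78 and 6.66 with placebo and 5.68 to 5.93 with E2, and those of 13 macrophage markers 7.88, 7.89 and 6.86 with placebo and 6.39 to 6.81 with E2. Of the mesothelial markers 1 fell on 6 arrays and 9 without placebo replicate 3, and of the macrophage markers 2 and 11. Over all genes 0.326% fell and 1.06% rose on 6 arrays, and 5.21% fell and 6.40% rose without placebo replicate 3. The epithelial markers, lower with E2 as given above, held 1 that fell and 1 that rose on 6 arrays, and 4 and 1 without placebo replicate 3. Msln, Upk3b, Wt1 and Krt19 are in both the epithelial and the mesothelial list, so these lists are not separate. The means of 9 adipocyte markers were 5.31 to 5.64 with placebo and 4.90 to 5.08 with E2, and 1 fell on 6 arrays and 6 without placebo replicate 3. Those of 8 fibroblast markers were 7.76 to 8.43 and 7.61 to 8.02, and 0 passed limma on 6 arrays, while 5 fell and 1 rose without placebo replicate 3. Smooth muscle and pericyte markers, a class that expresses Pde3a, had means of 6.23, 6.62 and 7.62 with placebo and 6.06 to 6.47 with E2, and 2 fell and 1 rose without placebo replicate 3. Endothelial markers had means of 5.69 to 5.87 and 5.40 to 5.72, a range that holds opposite movements. Kdr, a receptor of vascular endothelial growth factor, was 6.43 to 6.93 with placebo and 8.40 to 9.002 with E2, whereas the other 9 markers had lower means with E2, such as Pecam1 (6.25 to 6.49 and 5.48 to 6.02) and Cdh5 (6.03 to 6.24 and 5.19 to 5.71). On 6 arrays 1 endothelial marker rose and 0 fell in limma, and without placebo replicate 3 1 rose and 4 fell. Placebo replicate 3 was the lowest placebo tumour for mesothelial, macrophage and fibroblast (7.76) markers and the highest for Pde3a. It was also the highest for epithelial (8.06), smooth muscle and pericyte (7.62) and endothelial (5.87) markers. For adipocyte markers it was highest by little, at 5.6365 against 5.6305 in placebo replicate 2. The epithelial mean holds opposite movements. Of its 11 markers 5 were highest on that array, such as Epcam (10.14) and Cdh1 (9.56), and 2 lowest, Wt1 (6.37) and Lhx9 (4.48). The part of these cells in the fall of Pde3a was not tested. In a tumour sample, fewer cells of a type and less RNA per cell cannot be told apart.

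Pde3b, the paralog of Pde3a known from fat and liver cells, did not pass in either fit. It measured 6.73, 6.69 and 5.89 with placebo and 6.36, 6.43 and 6.66 with E2, and the low placebo value was that of replicate 3. The difference was 0.05 log2 (95% confidence interval -0.55 to 0.65, adjusted p = 0.943), and -0.23 without that array (adjusted p = 0.266). The difference was also below 0 without E2 replicate 3 (-0.04), with quantile normalization repeated (-0.03) and with array weights (-0.21), so no direction was settled. The confidence intervals of Pde3a and Pde3b did not meet, on 6 arrays or without placebo replicate 3 (-1.88 to -1.37 for Pde3a and -0.49 to 0.03 for Pde3b), though the difference between the genes was not tested.

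Pde2a, which cleaves both cyclic nucleotides and is stimulated by cGMP, measured 5.74, 6.03 and 6.23 with placebo and 5.38, 5.10 and 5.39 with E2. The groups did not overlap. The change was -0.71 log2 (SE 0.16) and did not pass (adjusted p = 0.102), while without placebo replicate 3 Pde2a fell by 0.59 log2 units (adjusted p = 0.0266). Pde10a and Pde11a, the other phosphodiesterases of both nucleotides outside the calmodulin family, differed by -0.15 and 0.33 log2 (-0.05 and 0.45 without placebo replicate 3) and did not pass. Among the calmodulin-stimulated enzymes, Pde1b lay 0.32 log2 units lower (adjusted p = 0.268) with groups that did not overlap, and Pde1a and Pde1c differed by 0.03 and -0.02. For Pde1b, Pde1a and Pde1c the values without placebo replicate 3 were -0.27, 0.16 and -0.0028.

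Pde7b rose in every E2 tumour. This enzyme cleaves cAMP, is insensitive to the classical inhibitor rolipram, and is known from brain striatum. Its log2 level was 5.20, 5.48 and 5.31 in the placebo tumours and 6.72, 6.83 and 7.18 in the E2 tumours. The groups did not overlap, and placebo replicate 3 lay between the other placebo tumours. Pde7b rose by 1.58 log2 units (SE 0.15, 95% confidence interval 1.22 to 1.94, adjusted p = 0.0105), a 2.99-fold difference, from 5.33 ± 0.14 to 6.91 ± 0.24 (SD, n = 3). The exact permutation test gave p = 0.10, its lowest possible value, as for every gene whose groups do not overlap. Without placebo replicate 3 the rise was 1.57 log2 (adjusted p = 0.000869).

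The call of Pde7b was lost without placebo replicate 1 (1.52 log2, adjusted p = 0.0582), E2 replicate 1 (1.67, adjusted p = 0.0674) or E2 replicate 2 (1.62, adjusted p = 0.0751). The fit without placebo replicate 1 called 0.391% of all genes. Of 10 granulosa and steroidogenic markers, 7 had higher means with E2, as Pde7b did, and 3 had lower means. Their mean log2 level over 10 genes was 4.56 to 4.79 with placebo and 6.05 to 6.30 with E2, and 5 of them rose, 7 without placebo replicate 3. Over all genes 1.06% rose on 6 arrays and 6.40% without placebo replicate 3. The 3 with lower means were the defining granulosa markers Fshr, Foxl2 and Amh. Across the 6 arrays Fshr lay at 3.86 to 4.09, Foxl2 at 4.97 to 5.31 and Amh at 4.42 to 5.004. Fshr was under the lower quartile on every array. Whether Pde7b and these genes rose in the same cells was not tested.

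The other cAMP-specific phosphodiesterases did not pass. Pde7a, the paralog of Pde7b known from lymphocytes, measured 6.51, 6.46 and 6.06 with placebo and 6.44, 6.38 and 6.55 with E2, a difference of 0.11 log2 (95% confidence interval -0.23 to 0.45), or -0.03 without placebo replicate 3. The rolipram-sensitive Pde4 family held no call. Pde4a, Pde4b and Pde4c differed by 0.19, 0.07 and 0.03 log2, and Pde4d by -0.46 (adjusted p = 0.404). The 4 genes differed by 0.06, -0.0039, 0.02 and -0.26 log2, in that order, without placebo replicate 3. All 3 probe sets of Pde4d had lower means with E2, by -0.46, -0.30 and -0.16 log2. Pde8a and Pde8b, enzymes with high affinity for cAMP that limit steroid output in Leydig and adrenal cells, pointed apart, at 0.54 and -0.32 log2, but neither passed (adjusted p = 0.424 and 0.448). Placebo replicate 3 was the lowest array for Pde8a and the highest for Pde8b, and without it the values were 0.22 and -0.13.

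**Figure D2:**
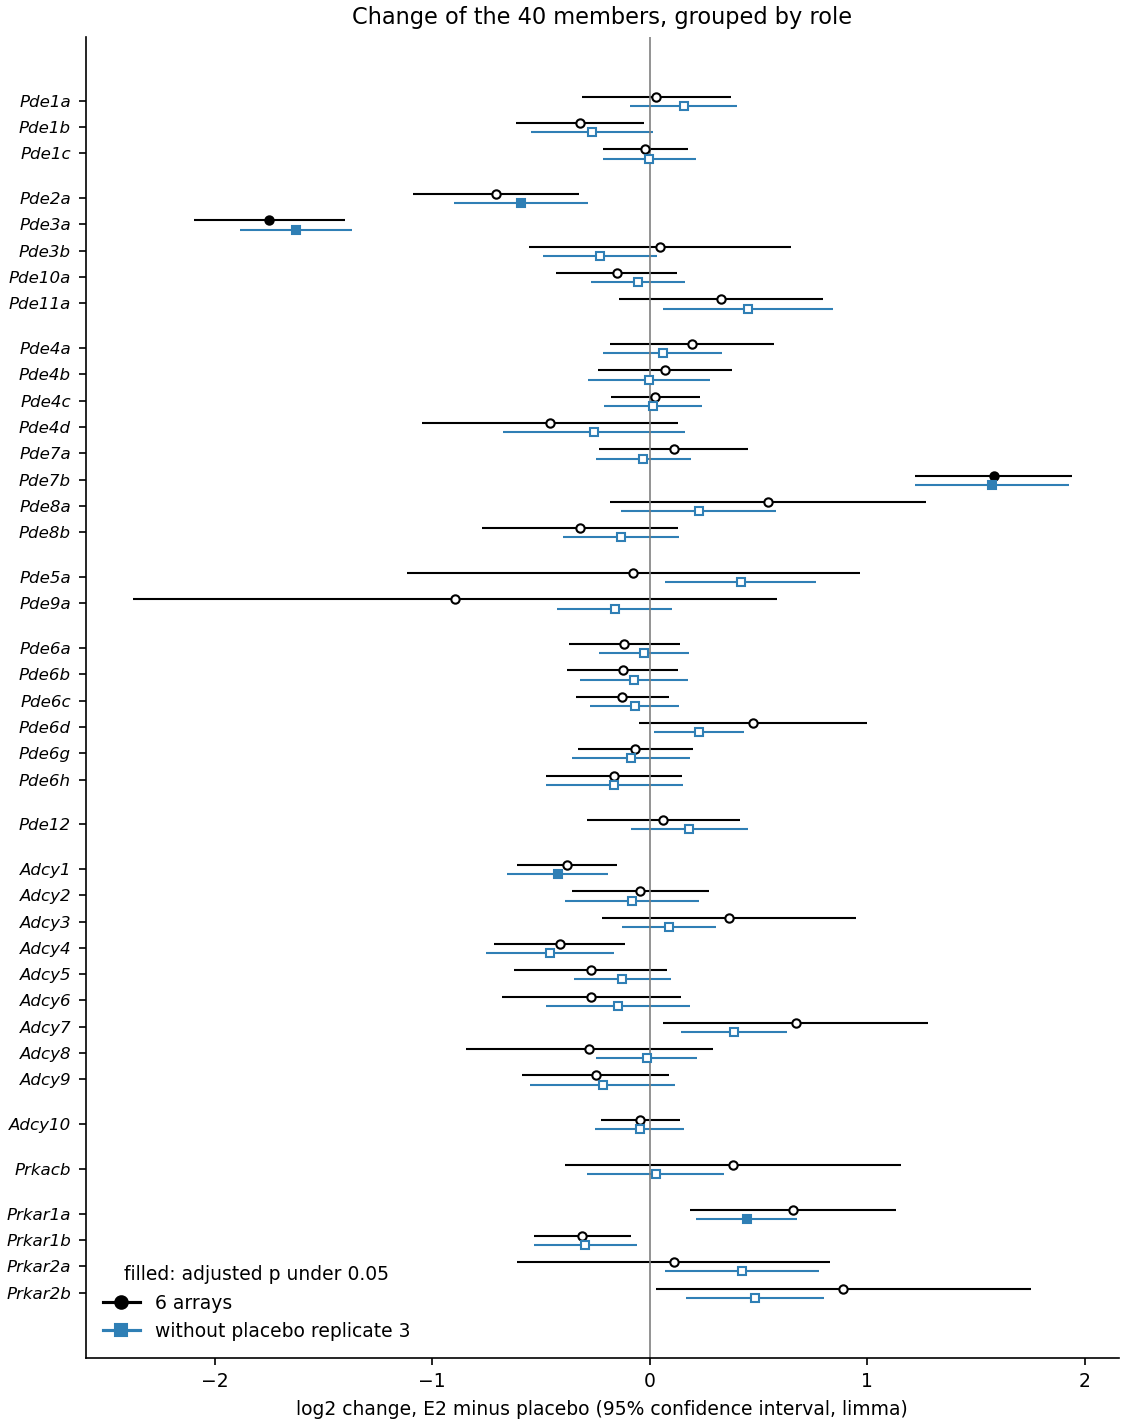
Log2 change of each of the 40 members, E2 minus placebo, with the 95% confidence interval of limma, on 6 arrays (black circles) and without placebo replicate 3 (blue squares), and filled symbols at an adjusted p under 0.05. Pde3a (-1.75) and Pde7b (1.58) lie farthest from 0 in both fits, and the intervals of Pde9a, Pde5a and Prkar2b shrink without placebo replicate 3.

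Neither cGMP-specific phosphodiesterase passed, and both were highest in placebo replicate 3. Pde9a measured 5.04, 4.99 and 7.22 with placebo and 4.92, 4.67 and 4.97 with E2. Its change was -0.90 log2 on 6 arrays (adjusted p = 0.507) and -0.16 without that array. Pde5a, the target of sildenafil and abundant in smooth muscle, measured 5.90, 6.22 and 7.54 with placebo and 6.44, 6.29 and 6.71 with E2. It differed by -0.08 log2 on 6 arrays and by 0.42 without placebo replicate 3 (adjusted p = 0.947 and 0.128). It also lay above 0 without E2 replicate 2 (0.02), under median centring (0.0075) and with array weights (0.31), so no direction was settled. Of the 10 smooth muscle and pericyte markers 7 were highest on that array, among them Myh11 at 8.70 and Actg2 at 8.43, against 4.78 to 5.55 and 4.53 to 4.92 on the other arrays. Of the pericyte genes, Cspg4 (5.47) and Pdgfrb (6.82) were lowest there, whereas Rgs5 was among the 7 markers that were highest. The part of intestinal or muscle tissue in these values was not tested.

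The genes named Pde6 encode the cGMP phosphodiesterase of photoreceptors. Its catalytic subunit genes Pde6b and Pde6c were under the lower quartile on each of the 6 arrays, so signal above background was not shown, and Pde6a lay at 4.44 to 4.77. The inhibitory subunit genes Pde6g and Pde6h differed by -0.07 and -0.16 log2, and by -0.09 and -0.16 without placebo replicate 3. Pde6d, a chaperone of prenylated proteins expressed in many tissues, was the phosphodiesterase symbol whose probe set had the highest mean signal. It measured 7.38, 7.37 and 6.63 with placebo and 7.59, 7.67 and 7.55 with E2, groups that did not overlap, and was 0.48 log2 units higher without passing (adjusted p = 0.342). Without placebo replicate 3 the difference was 0.23 log2 (adjusted p = 0.161). Pde12, which degrades oligoadenylates in mitochondria and acts on no cyclic nucleotide, differed by 0.06 log2, and by 0.18 without placebo replicate 3.

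None of the 10 adenylyl cyclases passed the limma test on 6 arrays, while 3 had an unadjusted p under 0.05, against 16.5% of all genes. Of the 10, 8 had lower and 2 higher means with E2, with a median of -0.26 log2, or -0.10 without placebo replicate 3. Adcy1, a calcium-stimulated cyclase known from neurons, measured 5.07, 5.13 and 4.97 with placebo and 4.80, 4.59 and 4.64 with E2. It was 0.38 log2 units lower (SE 0.09, adjusted p = 0.133) in groups that did not overlap, and without placebo replicate 3 it fell by 0.42 log2 units (adjusted p = 0.0321). Adcy4, prominent in endothelium, measured 5.32, 5.67 and 5.37 against 5.11, 4.92 and 5.09, a difference of -0.41 log2 (adjusted p = 0.185). Without placebo replicate 3 it was -0.46 (adjusted p = 0.0574). Of the endothelial markers, 9 of 10 had lower means with E2 as well, all but Kdr. Without placebo replicate 3, 4 of them fell, against 5.21% of all genes. The part of endothelial cells in the value of Adcy4 was not tested.

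Adcy9, a widely expressed cyclase that is insensitive to forskolin in most assays, measured 5.15, 5.43 and 5.39 with placebo and 5.10, 4.86 and 5.27 with E2. The groups overlapped, since E2 replicate 3 lay above placebo replicate 1. The difference was -0.25 log2 (SE 0.14, 95% confidence interval -0.59 to 0.09, adjusted p = 0.431; exact permutation p = 0.20), and -0.22 without placebo replicate 3. Adcy9 did not pass in any fit run.

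Adcy7 and Adcy3 were the cyclases with higher means. Adcy7, a cyclase of blood cells and many other tissues and the one whose probe set had the highest mean signal, measured 6.54, 6.41 and 5.63 with placebo and 6.90, 6.73 and 6.96 with E2, which did not overlap. The difference was 0.67 log2 (adjusted p = 0.265), and 0.39 without placebo replicate 3 (adjusted p = 0.0543). Adcy3, which serves olfactory neurons and primary cilia, differed by 0.37 log2, and by 0.09 without placebo replicate 3. Adcy5 and Adcy6, the calcium-inhibited pair, differed by -0.27 log2 each, and Adcy2 by -0.04. These were -0.13, -0.15 and -0.08 without placebo replicate 3. Adcy8 lay below the lower quartile on 5 of 6 arrays, and Adcy10, the soluble cyclase that answers to bicarbonate, on all 6.

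Of the 5 PKA subunits, 4 had higher means with E2, yet 0 passed limma on 6 arrays. An unadjusted p under 0.05 was reached by 3, Prkar1a and Prkar2b with higher means and Prkar1b with a lower one, against 16.5% of all genes. Prkar1a, the regulatory subunit whose loss causes Carney complex, measured 8.67, 8.60 and 8.001 with placebo and 8.98, 9.08 and 9.19 with E2. The groups did not overlap, and placebo replicate 3 was lowest. The difference was 0.66 log2 (SE 0.19, adjusted p = 0.182), and without that array Prkar1a rose by 0.44 log2 units (SE 0.10, adjusted p = 0.0271). Prkar2b, a regulatory subunit of neuroendocrine, fat and granulosa cells, measured 6.78, 6.67 and 5.51 with placebo and 7.22, 6.98 and 7.43 with E2. It was 0.89 log2 units higher (adjusted p = 0.292), and 0.49 without placebo replicate 3 (adjusted p = 0.0614).

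Prkar1b, the neuronal type I subunit, lay the other way, at 4.83, 4.84 and 4.88 with placebo and 4.67, 4.42 and 4.53 with E2. The difference was -0.31 log2 (adjusted p = 0.182). Leaving out placebo replicate 3 it was -0.30 (adjusted p = 0.116). Prkar2a, the widely expressed type II subunit, differed by 0.11 log2 on 6 arrays and 0.42 without placebo replicate 3 (adjusted p = 0.13), and placebo replicate 3 held its highest value, 7.11. It lay below 0 without placebo replicate 1 (-0.13) or E2 replicate 3 (-0.01). Prkacb, a catalytic subunit, measured 7.75, 8.03 and 6.83 with placebo and 7.95, 7.73 and 8.08 with E2. Placebo replicate 3 was its lowest array. The difference was 0.38 log2 (adjusted p = 0.573), and without that array 0.03 (95% confidence interval -0.29 to 0.34).

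Across the members, placebo replicate 3 was the highest array for 18 and the lowest for 11. Over all genes it was highest for 27.9% and lowest for 33.0%. It lay at least 1 log2 unit from the mean of the other placebo tumours for 4 members, Pde9a (2.21), Pde5a (1.48), Prkacb (-1.07) and Prkar2b (-1.21), against 10.1% of all genes. Pde7b (-0.02) and Adcy9 (0.10) were close to the other placebo tumours.

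**Figure D3:**
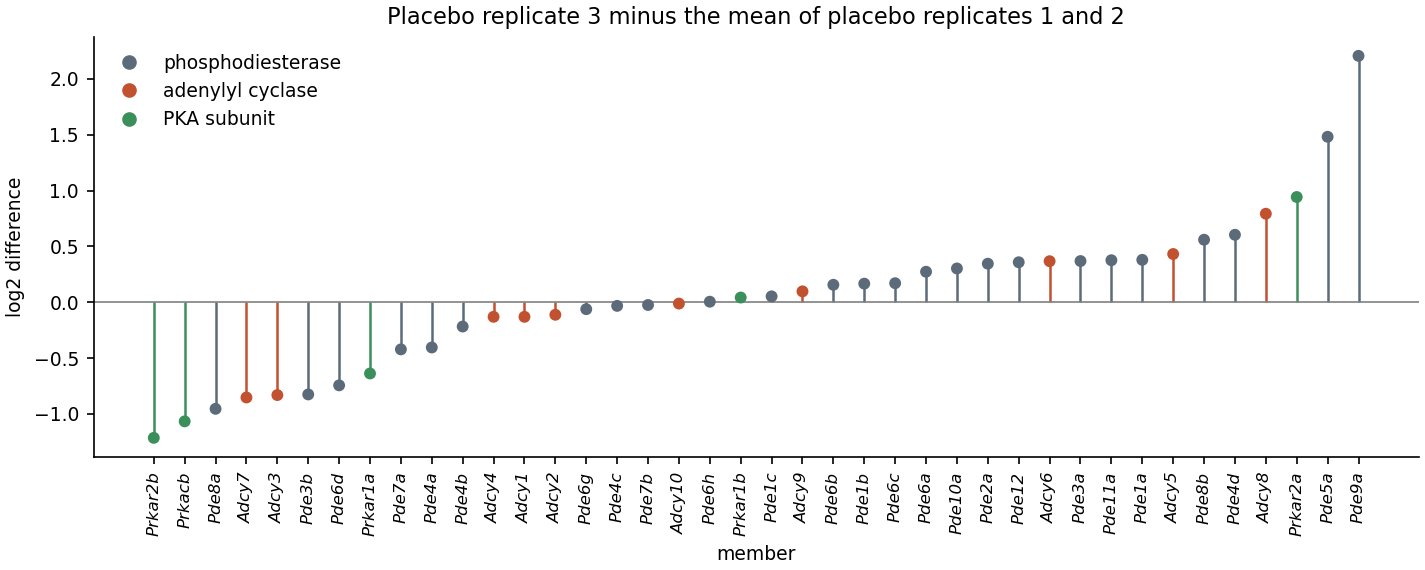
Log2 level in placebo replicate 3 minus the mean of placebo replicates 1 and 2, for each member, ordered by that difference and coloured by class. Values run from -1.21 (Prkar2b) to 2.21 (Pde9a), and Pde7b lies at -0.02.

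Other genes of the pathway were taken from 7 lists. Of 104 listed symbols 92 were measured, and 0 of these passed limma on 6 arrays, against 1.38% of all genes, while 17 had an unadjusted p under 0.05, against 16.5% of all genes. Their median change was -0.012 log2. Without placebo replicate 3, 6 rose and 11 fell, or 18.5% against 11.6% of all genes.

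Among 19 measured receptors that couple to the stimulatory G protein Gs, 1 rose and 4 fell without placebo replicate 3. That is 26.3% of these receptors, against 11.6% of all genes. Ptger2, a prostaglandin E2 receptor, rose by 0.53 log2 units in that fit (adjusted p = 0.016), and its change on 6 arrays was 0.59 (adjusted p = 0.0619). Another receptor of this ligand, Ptger4, fell by 0.50 log2 units (adjusted p = 0.0124). It measured 5.71, 5.57 and 6.90 with placebo and 5.13, 5.16 and 5.14 with E2. Calcrl, the receptor of adrenomedullin and calcitonin gene-related peptide and a gene of endothelium, changed by -0.73 log2 (adjusted p = 0.0169), Adcyap1r1, the PACAP receptor, by -0.73 (adjusted p = 0.0204), and Pth1r, the parathyroid hormone receptor, by -0.42. On 6 arrays none of these receptors passed. For Calcrl 2 E2 values lay under the lower quartile of their arrays. Of 9 measured G protein subunits, Gnao1, an inhibitory alpha subunit of neurons, fell by 0.58 log2 units without placebo replicate 3 (adjusted p = 0.0199). Calls among these subunits came to 11.1%, against 11.6% of all genes.

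Of 15 PKA inhibitors and anchoring proteins, which hold PKA near its substrates, 1 rose and 1 fell without placebo replicate 3. This share, 13.3%, lay near the 11.6% of all genes. Akap1, the anchor on the outer mitochondrial membrane, measured 6.26, 6.19 and 6.26 with placebo and 6.70, 6.59 and 6.72 with E2. It rose by 0.44 log2 units in that fit (adjusted p = 0.0209), and its change on 6 arrays was 0.43 (adjusted p = 0.0694). Akap13, another anchoring protein, fell by 0.68 log2 units (adjusted p = 0.0179). Of 12 genes of other cAMP effectors and cAMP transport, Rapgef3, which encodes the cAMP-activated exchange factor EPAC1, fell by 0.78 log2 units (adjusted p = 0.0168). On 6 arrays it changed by -0.63 (adjusted p = 0.182). Calls among these genes without placebo replicate 3 came to 8.33%, against 11.6% of all genes.

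None of 10 CREB factors and coactivators passed limma in either fit, with 1 at an unadjusted p under 0.05 in each. On 6 arrays the smallest p values belonged to Creb5 (0.56 log2, adjusted p = 0.249) and Crtc2 (0.37, adjusted p = 0.403). In the fit without placebo replicate 3 they belonged to Creb5 (0.40, adjusted p = 0.164) and the coactivator gene Crebbp (-0.31, adjusted p = 0.201). Among 14 measured genes known to be induced early by cAMP, 4 rose and 1 fell without placebo replicate 3. That is 35.7% of them, against 11.6% of all genes. Sgk1, a kinase, measured 5.78, 6.22 and 7.98 with placebo and 7.49, 7.35 and 7.26 with E2, and rose by 1.36 log2 units in that fit (adjusted p = 0.00116). Ereg, the growth factor epiregulin, rose by 1.13 (adjusted p = 0.00271), Nr4a1, a nuclear receptor, by 0.75 (adjusted p = 0.0337) and Fos by 0.54 (adjusted p = 0.0218). Both placebo values of Ereg in that fit, 4.25 and 4.07, lay under the lower quartile of their arrays. The clock gene Per1 fell by 1.02 log2 units. Sgk1, Ereg and Fos were highest in placebo replicate 3, and their changes on 6 arrays were 0.70, 0.33 and 0.02.

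The cGMP side held 13 genes of cyclases, natriuretic peptide receptors and kinases. Of these 3 fell and 0 rose without placebo replicate 3 (23.1%, against 11.6% of all genes). In limma on 6 arrays 0 passed, while 6 had an unadjusted p under 0.05, against 16.5% of all genes. On 6 arrays the groups did not overlap for 2 genes that were higher and 4 that were lower (46.2%, against 26.3% of all genes). The higher ones were the natriuretic peptide receptor gene Npr1 (0.96 log2, adjusted p = 0.179) and Gucy1b1, a subunit of the nitric oxide receptor (0.84, adjusted p = 0.171), and neither passed without placebo replicate 3 (adjusted p = 0.0675 and 0.0632). Gucy1a2, another subunit of that receptor, measured 5.43, 6.08 and 4.76 with placebo and 4.36, 4.40 and 4.34 with E2, and fell by 1.39 log2 units in that fit (adjusted p = 0.00246). The natriuretic peptide clearance receptor gene Npr3 fell by 0.86 log2 units (adjusted p = 0.00472). Prkg1, the cGMP-dependent kinase of smooth muscle and platelets, fell by 0.86 (adjusted p = 0.0276).

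**Figure D4:**
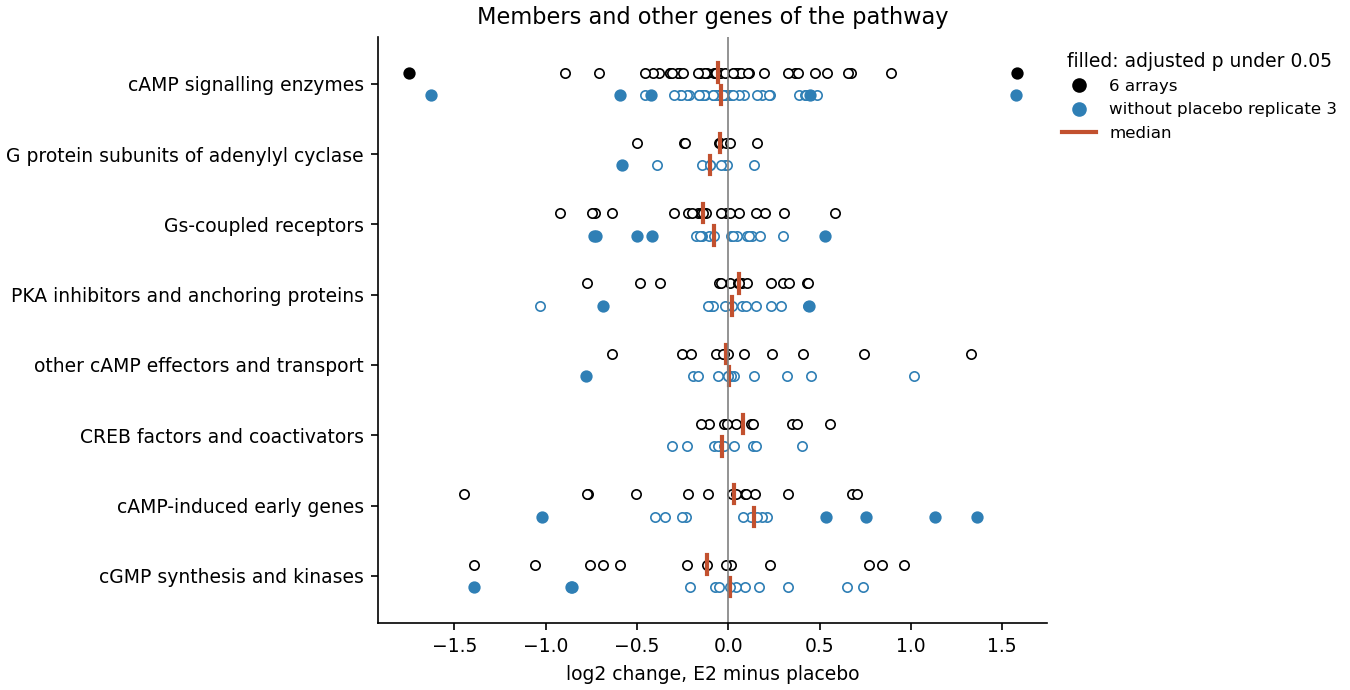
Log2 change, E2 minus placebo, of the members and of 7 lists of other pathway genes, 1 point per gene, on 6 arrays (black) and without placebo replicate 3 (blue), filled at an adjusted p under 0.05, with list medians as orange bars. On 6 arrays only Pde3a and Pde7b are filled, and the list medians lie between -0.14 and 0.08.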

How the data were processed

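RNA of 6 tumours, 3 placebo and 3 E2 by sample title, was hybridised to whole-transcript arrays. The deposited log2 intensities were produced by the authors using RMA (submitters' processing notes, per the labels), and the sources used here give neither software nor version. All 34760 probe sets had values on every array. The platform annotation named 1 gene for 21640 of them, several for 1321, and did not list 11799. For genes with several probe sets the one with the highest mean was kept, leaving 19937 genes, without a filter on dim genes. The group means were fitted in limma 3.58.1 (lmFit, then eBayes; R 4.3.3) without covariates, two-sided, with Benjamini-Hochberg adjustment over all genes and a threshold of 0.05. The design text calls the samples biological replicates, so p-values measure spread between tumours. The fit was tested on simulated data. Members, gene lists and the rule for named genes (members in full where called, the Pde3a and Adcy9 markers, the highest mean per family; pathway genes called without placebo replicate 3, up to 4 a list, or 2 of smallest p) were chosen with earlier results of these data known. Pth1r, Per1, Npr1, Gucy1b1 and Crebbp were named beyond the rule, as were Pde9a, Pde5a and other members, after their values were seen. Alternatives were leaving out each array, a replicate block, dim filters, probe set handling, normalization, variance models, array weights and thresholds. Genome coordinates are of RefSeq GRCm38.p6 and were used for promoter sequences only.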

Additional observations from a re-analysis of the deposited data

How the results depend on the processing

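No member that was called reversed under any of the 17 alternatives. Pde3a ranged from -1.86 to -1.63 log2 and was called in 12 of 16 settings, Pde7b from 1.45 to 1.67 in 13 of 17, and Adcy9 from -0.35 to -0.14 in 0 of 16. The other thresholds were applied to the main fit and could not take the call from Pde3a or Pde7b. Each lost its call when some single arrays were left out, as given above, and under the replicate block. The filter at the median of mean signal left 16 members, without Pde3a and Adcy9. Leaving out each array gave 0 to 2 members higher and 0 to 3 lower, and Pde3a values of -1.86 to -1.63. Array weights, which gave placebo replicate 3 the lowest weight, gave 2 higher and 3 lower. Unadjusted p under 0.05 with a 1.5-fold change gave 4 higher and 2 lower. The share of all genes called was not taken in either setting, so these counts say nothing particular to the members. The filter at the median gave 0 lower, with Pde3a itself removed, and a member median of 0.24 log2. Median centring gave a median of 0.029 log2. Centring shifts every gene of an array by the same amount, and the filter drops members without altering the fitted changes of the others. Why the array medians differed was not tested. The replicate block gave 0 higher and 0 lower, with Pde3a at -1.75 (adjusted p = 0.0745) and Pde7b at 1.58 (adjusted p = 0.0991). Deviations of same-numbered samples from their group means had r across genes of -0.03, -0.18 and -0.13, against -0.12 to 0.24 for differently numbered samples. Deviations within a group of 3 are tied to each other, and placebo replicate 3 stood apart. Whether the numbers pair the tumours therefore cannot be told from these values. Of 651 member values under alternatives 28, in 12 members not called, changed sign (Adcy2, Adcy10, Pde1a, Pde1c, Pde3b, Pde4b, Pde4c, Pde5a, Pde6g, Pde7a, Pde12 and Prkar2a). Many of these values could not change sign. The thresholds, dim filters, probe sets fitted singly, variance model and replicate block keep the fitted change of the main fit. With 3 arrays a group, uncalled members are not shown to be unchanged.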
